A study of Actinidia chinensis with 12 samples.

Results

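The flesh core of Hongyang, a red-fleshed kiwifruit, was compared with the flesh core of Jinyan, a yellow-fleshed one, in 6 RNA-seq libraries of the 12 in the series. The core libraries were chosen by their labels alone, 3 per cultivar. The fruits were ripe and freshly picked, the labels give Actinidia chinensis as the species throughout, and no treatment was applied to any group. The other 6 libraries, 3 per cultivar, came from samples labelled whole fruit, which the series design calls the periphery, and serve below for comparison. They entered the core test only through the shared filter, scaling and estimate of spread, and the core contrast itself was taken between the core libraries. Neither the age of the fruit nor whether a replicate is a fruit, a tree or a pool is given in the labels, so the tests compare against library-to-library spread, which may be technical.

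The core of a kiwifruit is the pale central column of the fruit, surrounded by the inner flesh in which the seeds sit. In red-fleshed kiwifruit, anthocyanins colour the inner flesh next to the core, whereas the yellow of other cultivars comes from carotenoids that are seen once chlorophyll has been lost. Hongyang is a selection of Actinidia chinensis. Jinyan was bred from a cross of Actinidia eriantha with Actinidia chinensis. The genes are listed under identifiers with the prefix Achn, the prefix of the gene models of the published Hongyang draft genome, and the table pairs none of them with a name. Lists of pigment, sugar, acid, ascorbate, cell wall, ethylene and tissue marker genes could therefore not be matched, and neither the tissue label nor any pathway could be checked through its marker genes. How far Jinyan reads failed to align where their sequence differs from the reference was not tested, and this applies to each gene that was lower in Jinyan below. In whole pieces of tissue, fewer cells of a type and less RNA per cell cannot be told apart.

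The 3 Hongyang core libraries held 13438624, 21222578 and 21045936 counts, and the 3 Jinyan core libraries held 18587778, 16364341 and 18555331. Counts were found for 24282 to 25287 identifiers in the Hongyang cores and for 22078 to 23387 in the Jinyan cores, without overlap between the cultivars. The biological coefficient of variation, the replicate spread left after counting error, was 0.243 within Hongyang core and 0.236 within Jinyan core. It was 0.547 in Hongyang whole fruit, whose replicate 3 had 1888744 counts, and those libraries shared the estimate of spread used in the tests below.

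The cores of the cultivars had most of their transcripts in common. The measure used was the percentage of counts that 2 libraries share when each gene is credited with the smaller of its shares in the libraries. The 9 pairs of a Hongyang core with a Jinyan core library shared 73.1 to 76.6%, with a median of 75.5%. Replicates shared 86.4 to 90.7% within Hongyang core and 87.2 to 90.9% within Jinyan core, so each between-cultivar pair lay below each replicate pair of the cores. A Hongyang core shared a median of 82.1% with Hongyang whole fruit, with a range of 66.9 to 86.3% over 9 pairs whose low end was set by the shallow replicate 3. A Jinyan core shared a median of 81.1% with Jinyan whole fruit, in a range of 77.2 to 84.0%. Across cultivar and tissue, a Hongyang core shared a median of 77.8% with Jinyan whole fruit, in a range of 76.5 to 78.8%. A Jinyan core shared a median of 70.9% with Hongyang whole fruit, in a range of 56.3 to 75.4% whose low end was again from replicate 3.

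**Figure D1:**
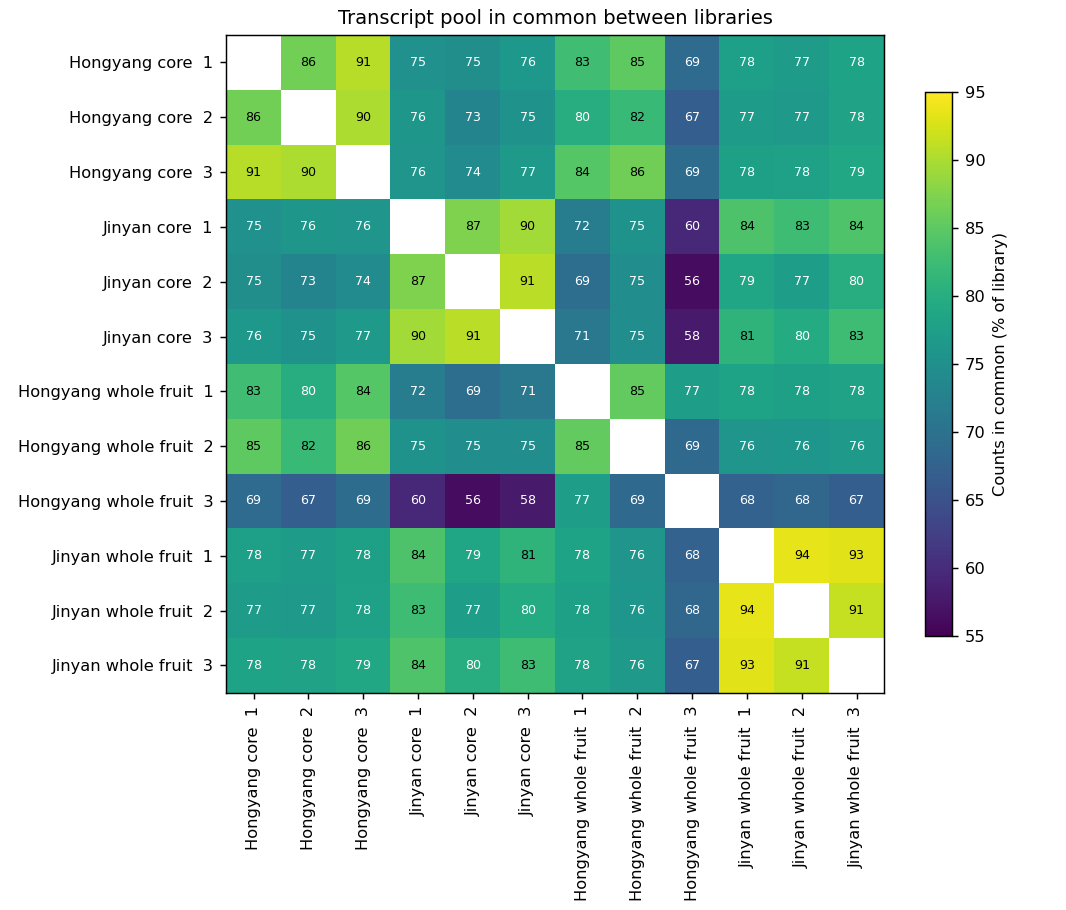
Percentage of counts in common for each pair of the 12 libraries, with each cell giving 1 pair and the colour scale running from 55 to 95%. The block of Hongyang core against Jinyan core lies at 73.1 to 76.6%, below both replicate blocks of the cores, and Hongyang whole fruit replicate 3 stands apart from the rest.

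Across genes, 6650 of the 22199 tested genes (30.0%) differed between the cores by edgeR's quasi-likelihood test, at a Benjamini-Hochberg adjusted p under 0.05 over all tested genes. Of these, 3554 (16.0% of tested genes) were higher in Hongyang and 3096 (13.9%) were lower. The fitted difference was at least 2-fold for 2865 higher and 2039 lower genes, together 22.1% of tested genes, at least 4-fold for 1440 and 760, and at least 8-fold for 874 and 409, together 5.78%. Among the called genes, 346 higher and 126 lower ones had 0 counts in all cores of a cultivar, all of them at 8-fold or more. Their fitted folds depend on the prior count and are not measured sizes. Without regard to the test, the libraries of the cultivars did not overlap for 12232 genes (55.1%), and 6555 of the 6650 called genes were among them. The median log2 fold change was 1.65 over the genes higher in Hongyang and -1.24 over the lower ones, against 0.11 over all tested genes.

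A gene not called was not thereby shown to be equal. Of the 15549 genes that were not called, 5471 had a 95% interval of the fold change that lay wholly within 2-fold in either direction, and for the others the interval reached beyond 2-fold on at least 1 side. The count of called genes was 10553 with limma voom and sample weights and 4730 to 5295 when any single core library was left out. The size of the excess of higher genes depended on the scaling. With library totals in place of TMM factors, 5245 genes were higher and 1964 lower, so that 72.8% of called genes were higher against 53.4% with TMM, and the median gene moved to a log2 fold change of 0.41.

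**Figure D2:**
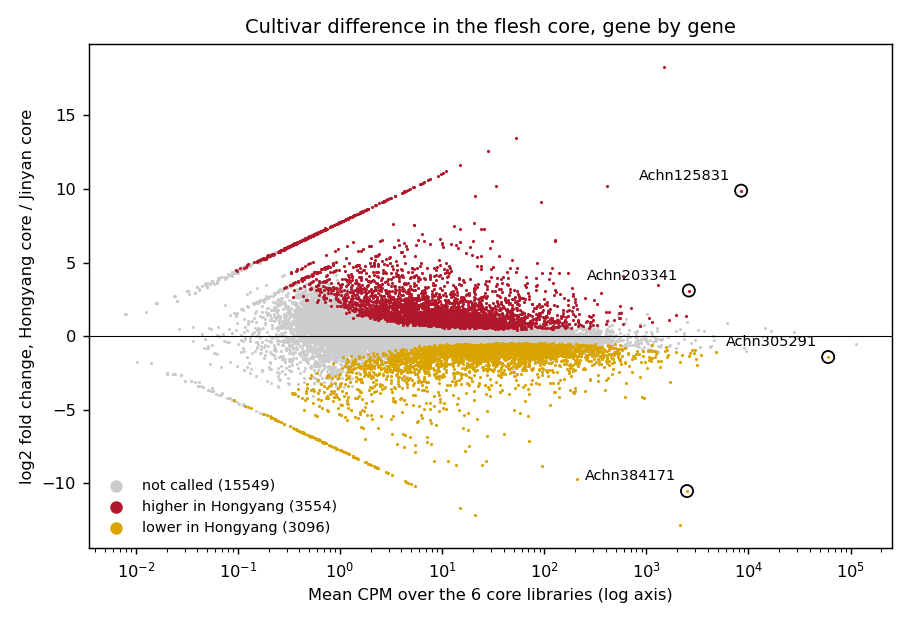
Log2 fold change of Hongyang core over Jinyan core for each of the 22199 tested genes against its mean CPM over the 6 core libraries, on a log axis. Genes that passed the test are red (3554 higher in Hongyang) or gold (3096 lower), the other genes are grey, the genes described individually are circled, and the straight streaks are genes with 0 or very few counts in a cultivar, whose fitted folds depend on the prior count.

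The direction of the difference changed with the abundance of the gene. Rare transcripts were mostly higher in Hongyang and abundant transcripts mostly higher in Jinyan. CPM here means edgeR's scaled count (the gene's count relative to the TMM-adjusted library size), and genes were classed by their mean over the 6 core libraries. Of 5945 genes at 1 to 5 CPM, 967 were higher in Hongyang and 418 lower. Of 6573 genes at 5 to 20 CPM, 1303 were higher and 824 lower. The balance then turned. Of 4926 genes at 20 to 100 CPM, 714 were higher and 1108 lower, of 1368 genes at 100 to 500 CPM, 136 were higher and 510 lower, and of 228 genes at 500 CPM or more, 18 were higher and 87 lower.

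The share of genes called was 17.9% under 1 CPM, 32.4% at 5 to 20 CPM, 37.0% at 20 to 100 CPM, 47.2% at 100 to 500 CPM and 46.1% at 500 CPM or more. The median standard error of the log2 fold change fell from 1.13 in the lowest class to 0.23 at 20 to 100 CPM, and was 0.24 and 0.30 in the classes above. Among called genes, the median size of the log2 fold change was 5.78 under 1 CPM, 2.18 at 1 to 5 CPM, 1.08 at 20 to 100 CPM, 1.07 at 100 to 500 CPM and 1.33 at 500 CPM or more. Where a rare gene had 0 or very few counts in a cultivar, its fitted fold depends on the prior count. The value under 1 CPM is therefore not a measured size.

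The median log2 fold change over all genes of a class, called or not, fell steadily from 0.85 under 1 CPM through 0.37, 0.13, -0.14 and -0.43 to -0.62 at 500 CPM or more. Genes under 1 CPM could pass the filter on low counts through a single group in which they were high. The median and the calls of that class depend in part on this filter, and how far was not tested. The order of the medians was the same under each scaling, but the point at which the sign turned was not. With library totals the medians ran from 1.15 to -0.30 and the class at 20 to 100 CPM was at 0.17 instead of -0.14, with 1169 genes higher and 657 lower. With DESeq2's size factors they ran from 0.82 to -0.64. Library by library, on the scale of log2(CPM + 1), the medians fell from the class at 1 to 5 CPM upwards in each of the 6 core libraries. The class under 1 CPM lay below the next in all 6 on this scale, where the added 1 shrinks the differences of rare genes. The median of the class at 500 CPM or more was -0.50, -0.67 and -0.62 when Jinyan core replicate 1, 2 and 3 was set against the mean of the Hongyang cores. It was -0.59, -0.61 and -0.63 when Hongyang core replicate 1, 2 and 3 was set against the mean of the Jinyan cores.

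The whole fruit libraries, which were not used to class the genes, gave medians of 0.28, 0.33, 0.16, -0.09, -0.34 and -0.42 in the same 6 classes, from rare to abundant. The order held there from 1 CPM upwards, while the class under 1 CPM lay below the next.

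**Figure D3:**
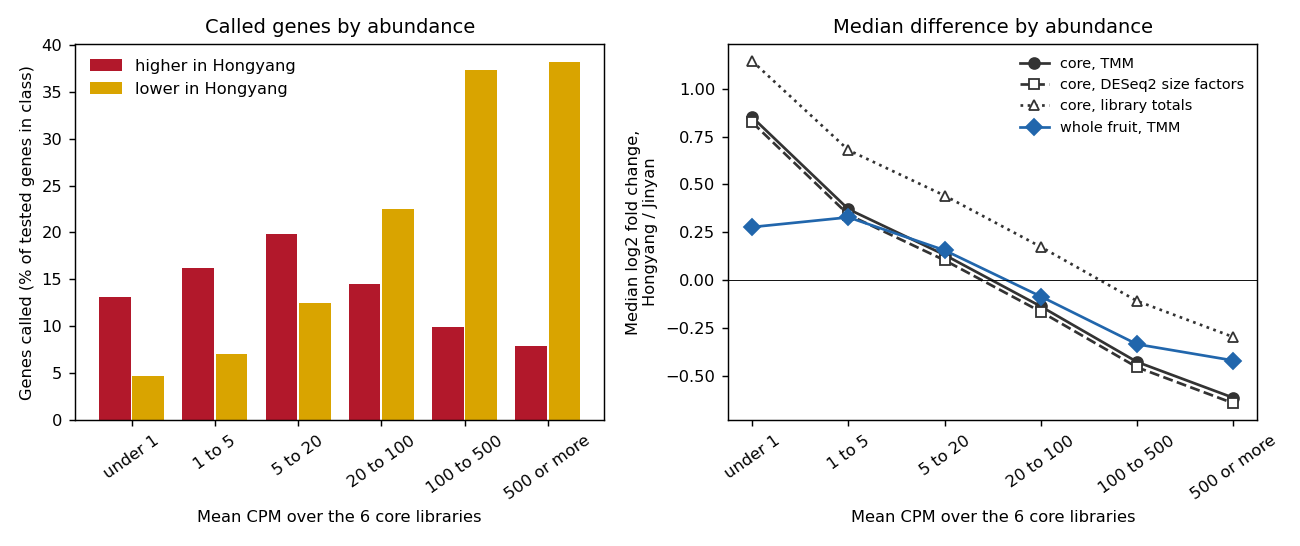
Left, percentage of tested genes called higher (red) or lower (gold) in Hongyang core in each class of mean core CPM; right, median log2 fold change of all tested genes in the class, in core under 3 scalings (black) and in whole fruit with TMM (blue). With TMM the core medians fall from 0.85 to -0.62, and library totals shift the whole line upwards.

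The most abundant genes were largely the same in both cores. Of the 10 genes with the highest mean CPM in each cultivar, 8 were shared, and of the 100 highest, 65. Among the 135 genes that belonged to the highest 100 of at least 1 cultivar, 61 (45.2%, against 30.0% of all tested genes) passed the test, 13 higher in Hongyang and 48 lower. That share is near those of abundant genes at large, 47.2% at 100 to 500 CPM and 46.1% at 500 CPM or more.

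The evenness of the pools was compared by 3 measures, of which 2 overlapped between the cultivars. The number of genes that together held 50% of counts was 242, 296 and 287 in the Hongyang cores and 280, 146 and 188 in the Jinyan cores, which overlap. The exact two-sided permutation test gave p = 0.2 (adjusted p = 0.3 over 3 measures). The 10 most abundant genes held 27.4, 23.8 and 26.0% of counts in the Hongyang cores and 22.5, 29.8 and 27.8% in the Jinyan cores (exact permutation p = 0.7, adjusted p = 0.7). Genes under 10 CPM, here by library totals without TMM factors, held 4.22% ± 0.042 (SD, n = 3) of counts in Hongyang core. They held 4.04% ± 0.062 (SD, n = 3) in Jinyan core, without overlap. Its exact permutation p = 0.1 is the smallest that 3 against 3 allows (adjusted p = 0.3).

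The genes called lower in Hongyang held a larger part of the transcripts than those called higher. The 3096 lower genes took 37.4, 38.3 and 36.2% of counts in the Jinyan cores and 18.7, 18.9 and 18.8% in the Hongyang cores. The 3554 higher genes took 14.5, 15.4 and 14.0% in the Hongyang cores and 4.07, 3.32 and 3.73% in the Jinyan cores. These values describe the core libraries on which the genes were called and carry no test. In the whole fruit libraries, the lower genes took 31.1% ± 0.36 (SD, n = 3) in Jinyan, compared with 18.0% ± 3.0 (SD, n = 3) for Hongyang. For the higher genes, Jinyan stood at 6.20% ± 0.091 (SD, n = 3) and Hongyang at 12.4% ± 1.2 (SD, n = 3). The cultivars' libraries did not overlap in either set there.

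Few genes carried much of each set. In Hongyang core, 107 of the 3554 higher genes held 50% of the set's counts, and in Jinyan core, 86 of the 3096 lower genes did. Without the 4 genes described next, the higher set stood at 12.5% ± 1.1 (SD, n = 3) in Hongyang core and 3.66% ± 0.37 (SD, n = 3) in Jinyan core. The lower set then stood at 15.5% ± 0.24 (SD, n = 3) and 30.04% ± 1.2 (SD, n = 3).

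Individual genes are given by identifier, 2 in each direction. They had the largest difference in mean CPM among called genes with at least 10 counts in every core library and no overlap, conditions met by 2425 higher and 2653 lower genes.

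Achn125831 stood at 29182, 9327 and 12307 CPM in the Hongyang cores and at 5.64, 31.6 and 16.9 CPM in the Jinyan cores. It was the 7th most abundant gene of the Hongyang core, with 2.88% of counts in replicate 1, and ranked 6768th in the Jinyan core. The fitted log2 fold change was 9.88 ± 0.78 (SE), or 941-fold (edgeR adjusted p = 2.1e-06). In whole fruit it stood at 4096, 6610 and 7790 CPM in Hongyang and at 4.85, 8.0 and 7.39 CPM in Jinyan. The log2 fold change there was 9.83 ± 0.79 (SE; edgeR adjusted p = 4.0e-06). Each Hongyang library of either tissue thus exceeded each Jinyan library. Without Hongyang core replicate 1, the highest library, the log2 fold change in core was 9.23, and without Jinyan core replicate 2 it was 10.53.

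Achn203341 was expressed in both cultivars. It stood at 2451, 8278 and 3278 CPM in the Hongyang cores and at 559, 545 and 530 CPM in the Jinyan cores. The Hongyang cores were all higher and spread widely, while the Jinyan cores were nearly level. The log2 fold change was 3.10 ± 0.44 (SE), or 8.57-fold (edgeR adjusted p = 2.0e-04), and 2.36 without Hongyang core replicate 2. In whole fruit it stood at 1050, 1372 and 560 CPM in Hongyang and at 206, 229 and 242 CPM in Jinyan, again without overlap, with a log2 fold change of 2.14 ± 0.42 (SE; edgeR adjusted p = 0.0027).

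Achn305291 was the second most abundant gene in both cores. It took 3.35, 3.45 and 2.96% of counts in the Hongyang cores and 5.65, 8.64 and 6.30% in the Jinyan cores. In CPM, these were 33954, 35263 and 29528 in Hongyang and 64391, 118344 and 80454 in Jinyan. Each Jinyan core was higher than each Hongyang core, and the log2 fold change was -1.41 ± 0.45 (SE), 2.67-fold lower in Hongyang (edgeR adjusted p = 0.030). The call was lost without Hongyang core replicate 1, 2 or 3 (adjusted p = 0.086, 0.074 and 0.11) and without Jinyan core replicate 2 or 3 (adjusted p = 0.12 and 0.060). Over all alternatives its adjusted p ran from 1.6e-04 to 0.12. In whole fruit the cultivars overlapped, at 16938, 38969 and 11699 CPM in Hongyang and 31044, 29076 and 36970 CPM in Jinyan (log2 fold change of -0.52 ± 0.44, SE; edgeR adjusted p = 0.43).

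Achn384171 stood at 2.03, 6.99 and 1.09 CPM in the Hongyang cores and at 4435, 6023 and 4538 CPM in the Jinyan cores. It was the 14th most abundant gene of the Jinyan core and ranked 14942nd in the Hongyang core. The log2 fold change was -10.51 ± 0.85 (SE), 1463-fold lower in Hongyang (edgeR adjusted p = 2.4e-06), and -11.71 without Hongyang core replicate 2, the highest Hongyang library. In whole fruit it stood at 0.145, 1.32 and 0 CPM in Hongyang and at 259, 214 and 481 CPM in Jinyan. The log2 fold change there was -8.82 ± 0.86 (SE; edgeR adjusted p = 1.7e-05). In both cultivars its mean was higher in the core than in whole fruit, at 3.37 against 0.490 CPM in Hongyang and at 4999 against 318 CPM in Jinyan. The Hongyang tissues overlapped, with 1.09 CPM in core replicate 3 and 1.32 CPM in whole fruit replicate 2. Core was not tested against whole fruit within a cultivar.

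For none of these 4 genes did the cultivar difference in core pass the test against that in whole fruit. The core difference minus the whole fruit difference, in log2, was 0.05 ± 0.80 (SE) for Achn125831 and 0.96 ± 0.57 (SE) for Achn203341. It was -0.89 ± 0.63 (SE) for Achn305291 and -1.69 ± 1.01 (SE) for Achn384171, with edgeR adjusted p of 0.41 to 1.00 over the 4 genes. For Achn305291, a call in core and none in whole fruit is therefore not shown to be a difference between the tissues.

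**Figure D4:**
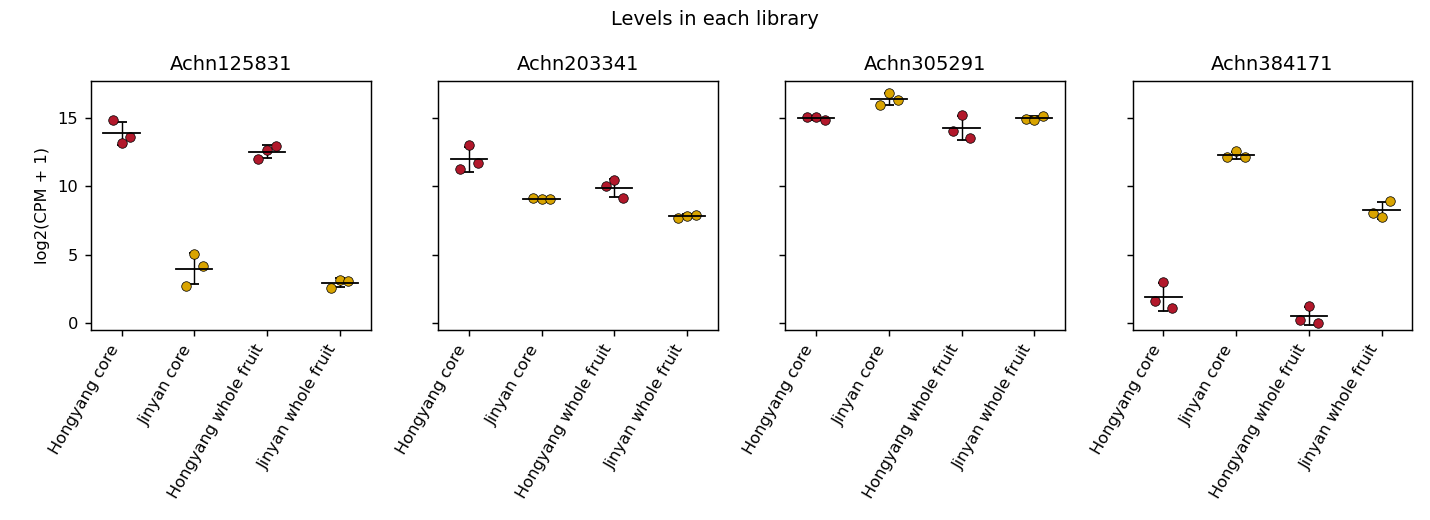
Levels of the 4 genes in each of the 12 libraries as log2(CPM + 1), with Hongyang in red, Jinyan in gold, and bars for the mean and SD of 3 libraries. Achn125831 and Achn384171 differ about 941-fold and 1463-fold between the cores in opposite directions, Achn203341 is higher in Hongyang in both tissues, and Achn305291 overlaps between the cultivars in whole fruit.

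Some genes were on in the core of a cultivar and close to off in that of the other. In 34 genes, each Hongyang core library had at least 10 CPM and each Jinyan core library less than 1 CPM, and 26 genes showed the reverse. All 60 were among the called genes, which follows closely from how they were chosen. In the whole fruit libraries, which did not choose them, the Hongyang libraries all exceeded the Jinyan libraries for 31 of the 34, against 18.7% of all tested genes. The Jinyan libraries all exceeded the Hongyang libraries for 24 of the 26, against 18.7%. The difference between core and whole fruit passed the interaction test, defined below, for 11 of the 60, against 2.25% of all tested genes. The interaction also uses the core libraries that chose these genes, so the 2 shares are not alike and test nothing further. Among called genes 8 to 32-fold apart in core, it passed for 10.7% of higher and 12.8% of lower genes. At 32-fold or more it passed for 10.8% and 5.76%.

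Over the whole table of 39040 identifiers, 10583 had 0 counts in all 6 core libraries. A further 210 had 0 counts in the 3 Jinyan cores and a mean of at least 1 CPM, here by library totals, in the Hongyang cores. The reverse held for 62. A count of 0 over the 3 libraries allows up to 0.056 CPM in Jinyan core and 0.054 CPM in Hongyang core, at 3 counts over 53507450 and 55707138, which covers counting error only. The levels in the expressing cultivar were mostly low, with a median of 1.83 CPM over the 210 genes and 2.03 CPM over the 62. Of these, 39 and 8 reached 5 CPM. A few of the 210 were abundant: 3 reached 50 CPM, and the highest had a mean of 2977 CPM in the Hongyang cores. The highest of the 62 had a mean of 32.7 CPM in the Jinyan cores. Without Hongyang core replicate 3, the 62 became 97.

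Not all of these genes were silent in the cultivar. Of the 210 without reads in Jinyan core, 122 had at least 1 count in Jinyan whole fruit, and 38 had a mean of at least 1 CPM there. Of the 62 without reads in Hongyang core, 16 had at least 1 count in Hongyang whole fruit. The shares were not compared by a test, since the whole fruit groups differ in depth. In the expressing cultivar, 202 of the 210 and 60 of the 62 also had counts in whole fruit.

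Genes called in the core mostly differed the same way in the whole fruit libraries, where 24.8% of tested genes were called by the same rule. Of the 6650 genes, 87.5% had the same sign in whole fruit, against 71.2% of all tested genes and 64.2% of the 15549 uncalled genes. The 3554 genes higher in Hongyang core had a median log2 fold change of 1.01 in whole fruit, and the 3096 lower ones -0.80. Of the higher genes, 1682 (47.3%) passed the test in the same direction in whole fruit and 40 in the opposite one. Of the lower genes, 1516 (49.0%) passed in the same direction and 29 in the opposite one. The libraries are separate, but both sets of calls came from a fit with a shared estimate of spread. Fitting core and whole fruit libraries apart gave the same sign for 85.0%. The genes were chosen for their core values, which enlarges the core medians relative to those in whole fruit.

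The size of the whole fruit difference followed that in the core. Among genes 2 to 4-fold higher in Hongyang core, the median log2 fold change was 1.38 in core and 0.88 in whole fruit, and among those 2 to 4-fold lower it was -1.33 and -0.87. At 8 to 32-fold the medians were 3.75 in core and 2.07 in whole fruit for higher genes and -3.72 and -2.85 for lower genes. The same sign was found for 85.6 to 88.0% of higher genes in the 5 fold classes. For lower genes it was found for 81.0% under 2-fold and for 90.03 to 94.8% in the larger classes. Of the genes at 32-fold or more, 339 of 416 higher and 122 of 191 lower genes had 0 counts in all cores of a cultivar. With these set to their bound of 3 counts over the group, the core medians were 4.32 and -5.23 and the whole fruit medians 2.66 and -3.98.

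**Figure D5:**
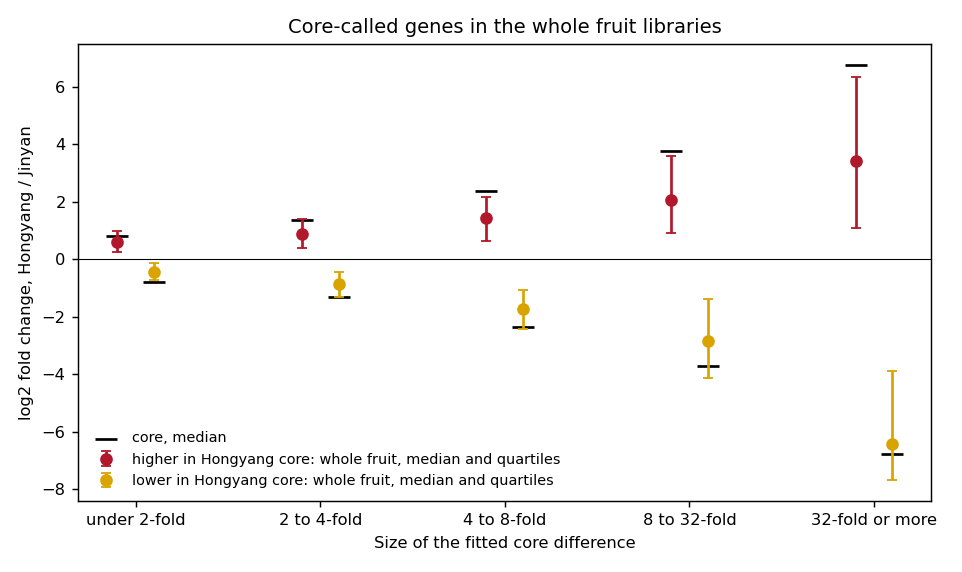
Fitted log2 fold changes of Hongyang over Jinyan in whole fruit for genes called in core, by size of the core difference; points are medians, bars reach from the lower to the upper quartile, and black dashes give the core medians. The whole fruit medians rise with the core difference in both directions, and the values in the class of 32-fold or more rest largely on genes with 0 counts in a cultivar.

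The difference between the tissues was itself significant for a minority of the genes called in the core. The interaction, the cultivar difference in core minus that in whole fruit, passed for 366 of the 6650 (5.50%), against 500 of all 22199 tested genes (2.25%). For 312 of the 366 the fitted difference was larger in the core and for 215 its sign was opposite in whole fruit. A gene called in core is more likely to pass the interaction because both use the core libraries, so these shares describe the genes and test nothing further. The interaction count was 157 to 214 without Hongyang core replicate 2 or 3 or Jinyan core replicate 1, 2 or 3 and 491 without Hongyang core replicate 1, while DESeq2 gave 1604 and limma voom 2955.

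The spread between replicates was not tested between the cultivars, and its measures differed in direction. The coefficient of variation given above was slightly larger in Hongyang core. Over 13095 genes with at least 5 CPM, the median SD of log2(CPM + 1) was 0.178 in Hongyang core and 0.211 in Jinyan core, and it was larger in Jinyan for 56.5% of genes. The median distance of a library from the mean of the other 2 of its group was 0.142 to 0.204 for the Hongyang cores and 0.200 to 0.233 for the Jinyan cores. Jinyan core replicate 2 was the farthest.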

How the data were processed

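The 12 libraries were made from poly(A)-selected RNA with random primers and sequenced from both ends, per the labels' protocols. What the authors deposited is 1 table of raw counts, with a column for each library and a row for each gene identifier, and no libraries were pooled. The submitters' processing notes name Trimmomatic 0.36 and HISAT2 2.1.0. Neither a counting program nor a genome build is named, and how multiply aligned reads were treated is not stated, so counts of similar gene copies are uncertain. No strand-marking step is described, so a gene and an antisense partner cannot be told apart. The sequencer model of each library is not stated, and a batch could not be examined. In the core libraries, 56.2 to 59.4% of the counts from 1 to 20 were even, as happens when the mates of a pair are counted separately. In that case counting error is understated. Whether mates were counted separately was not tested. With each count halved and rounded down, 7192 genes were called in core, 3770 higher in Hongyang and 3422 lower, and 670 passed the interaction.

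Counts were tested with edgeR 4.0.16 in R 4.3.3. After filterByExpr and TMM scaling, the 4 groups of all 12 libraries were fitted together by quasi-likelihood, and the core contrast was tested two-sided. TMM factors were 0.98 to 1.00 in Hongyang core and 0.73 to 0.88 in Jinyan core. Standard errors are the absolute log2 fold change over the square root of F. The procedure was tested on simulated data. Alternatives used DESeq2 1.42.0 and limma 3.58.1. Named genes follow the rule given with them, 2 in each direction since the identifiers carry no names. The comparison, gene lists and tests were chosen with earlier results of these data known. The chi-square per degree of freedom between replicate cores was 28.1 to 65.8, so no 2 of them matched within sampling noise.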

Additional observations from a re-analysis of the deposited data

How the results depend on the processing

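The count of called genes stayed within 1.5 times of 6650 under 17 of 18 alternatives and was 10553 with limma voom (5600 higher and 4953 lower). Of the 6650 genes, 6375 were also called when only the 6 core libraries were fitted (9060 calls) and 5518 with library totals. Lower genes numbered 1964 with library totals, 1276 of them at least 2-fold, and 4889 without the Hongyang whole fruit group. At a mean of at least 5 CPM, with fewer genes tested, 1830 higher and 1294 lower genes reached 2-fold.

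Of called genes, 53.4% were higher in Hongyang. This share was 72.8% with library totals, 50.8% with DESeq2's size factors, 51.2% with DESeq2, 55.1% without a filter, 51.8% with the core libraries only and also when thinned to equal depth, and 50.04% without Hongyang whole fruit. Leaving out a core library gave 50.9 to 55.2%, with 4730 to 5295 genes called, 2438 to 2788 higher and 2160 to 2550 lower.

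Replicate numbers did not pair the cores: same-numbered libraries deviated from their group means with correlations of -0.10, -0.08 and -0.06. With the replicate number as a block, 6437 genes were called over 12 libraries and 7854 over the 6 cores, where 51.3% were higher.

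The interaction count was 1604 with DESeq2, 2955 with limma voom and 157 to 491 without a core library. The interaction of Achn125831, near 0, took the other sign without Hongyang core replicate 1 (-0.59) or Jinyan core replicate 1 (-0.41) or 3 (-0.03), over a range of -0.59 to 0.70 without a core library. Achn305291 kept its direction under all 18 alternatives and lost its call under 5, with log2 fold changes of -1.44, -1.50 and -1.34 without Hongyang core replicate 1, 2 and 3 and -1.16 and -1.50 without Jinyan core replicate 2 and 3. The other 3 named genes kept their calls under all 18.

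The same sign in whole fruit was found for 85.0% with the tissues fitted apart and for 85.7 to 88.1% without a whole fruit library. At a minimum of 5 CPM, 39 and 8 genes were without reads in Jinyan and Hongyang core. Without a core library the numbers were 204 to 298 and 58 to 97. Alternatives for the evenness measures were chosen after seeing the data. The share of the 10 most abundant genes, 0.97 percentage points lower in Hongyang, was 0.56 points higher without Jinyan core replicate 2, over a range of -3.05 to 0.56. In the rarest class no gene had an interval within 2-fold, and how far depth set this was not tested.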
